A study of Mus musculus with 15 samples.

Results

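Melanocytes depleted of Hif1a with one small interfering RNA (siRNA), labelled Si1, were compared directly with melanocytes depleted with another, labelled Si6. The comparison used the 6 of 15 expression arrays that carry these labels, 3 for each siRNA, chosen by their titles alone. All cells were melan-Ink4a-Arf-1, a single immortalized line of pigment cells from mice carrying the Cdkn2a tm1RDp/tm1RDp genotype, grown in medium with serum, phorbol ester and cholera toxin. Both siRNA groups were transfected 24 h before being moved to 1% oxygen and 5% CO2, where they stayed for 24 h. A negative control group and a hypoxia control group, 3 arrays each, spent the same time in the same gas, and the labels do not say what either received. A normoxia group of 3 arrays was kept at about 21% oxygen and 10% CO2. The series describes the arrays of a group as biological triplicates. Each siRNA is a single reagent, and its sequence is not given in the sources used here, so what differs between the reagents other than their label could not be examined.

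Hypoxia-inducible factor 1 is a transcription factor made of an oxygen-regulated subunit, encoded by Hif1a, and a stable partner, encoded by Arnt. When oxygen falls, prolyl hydroxylases stop marking the HIF1A protein for destruction by the von Hippel-Lindau protein, and the factor turns on genes for glycolysis, angiogenic signals and mitochondrial turnover. An siRNA guides the Argonaute proteins to a matching messenger RNA, and it can also lower other messengers that match it in part.

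Levels are the deposited log2 intensities, so a difference of 1 is a 2-fold change of signal. The values of Si1 and Si6 arrays correlated at 0.987 to 0.990 (Pearson's r across all 41345 probe sets, 9 pairs), below the 0.993 to 0.996 found within each of these groups. Array medians lay between 6.52 and 6.61. The difference Si1 minus Si6 was tested with limma and Benjamini-Hochberg adjustment over 22180 genes, and a gene is called where the adjusted p is below 0.05. Melanocyte identity markers were present throughout, with array means over the 10 markers of 10.45 to 10.53 in Si1 and 11.22 to 11.30 in Si6. The array means of the marker lists of keratinocytes, macrophages and leukocytes, endothelium and fibroblasts lay between 5.93 and 6.60 on these 6 arrays, and that of Schwann and neural markers between 6.98 and 7.17. The file holds no detection calls, so none of these can be called absent.

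Hif1a itself was strongly reduced by both siRNAs, slightly more by Si1. The negative control arrays read 10.68, 10.66 and 10.56, the Si1 arrays 8.61, 8.75 and 8.59, and the Si6 arrays 8.90, 8.91 and 8.98. All 6 siRNA arrays were far below the control arrays, and every Si1 array was below every Si6 array. Against the negative control, Hif1a differed by -1.98 ± 0.06 (SE) in Si1 and -1.70 ± 0.06 in Si6, comparisons that share the control arrays. The direct difference was -0.28 ± 0.06 (limma adjusted p = 0.0012). A second, dimmer Hif1a probe set with a mean of 5.40 differed neither by test nor in this direction, at 0.06 (adjusted p = 0.62), and stood at -0.01 and -0.07 against the control. Averaging both probe sets gave a difference of -0.11 that did not pass (adjusted p = 0.17, against 8.7e-05 to 0.013 under the other alternatives). That average includes the dim probe set, which showed the reduction by neither siRNA, so the size of the gap depends on which probes are read.

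The other genes of the oxygen-sensing machinery differed in both directions, from -0.72 to 0.27, and the largest differences were lower in Si1. Of 15 measured HIF subunits and oxygen sensors, 4 were higher in Si1 and 7 lower, where 14.5% and 13.4% of all genes were called. Lower in Si1 was Cited2, a hypoxia-induced inhibitor that competes with HIF for its coactivators, at 10.40, 10.50 and 10.40 against 11.19, 11.16 and 11.12, a difference of -0.72 ± 0.05 (adjusted p = 2.2e-08). Vhl, the substrate-recognition subunit that captures hydroxylated HIF, was lower by -0.43 ± 0.07, and Epas1, encoding the second oxygen-regulated subunit HIF2A, by -0.43 ± 0.08. Arnt differed by -0.25 and its relative Arnt2 by 0.27. The prolyl hydroxylases were near each other in both groups. Egln3 read 5.52 to 5.87 in Si1 and 5.75 to 5.79 in Si6, and these ranges overlapped (difference -0.05 ± 0.15, adjusted p = 0.89). Egln1 differed by -0.18 (adjusted p = 0.032) and Egln2 by -0.22 (adjusted p = 0.0068). The small differences of Egln1, Hif3a, Hif1an and Siah2 each lost their call under 5 or more of the 16 alternative settings, and without Si1 array a the count of members higher in Si1 was 1 in place of 4.

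**Figure D1:**
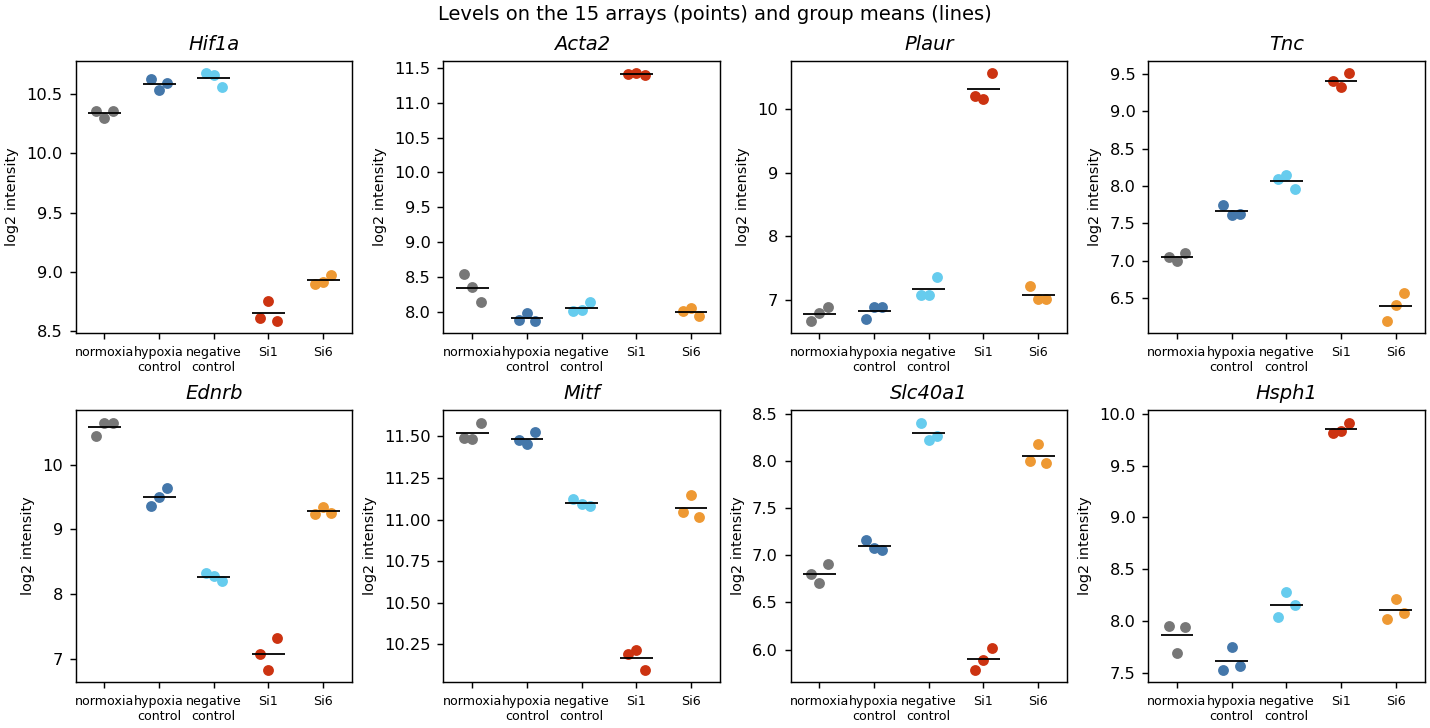
Log2 intensity of 8 genes on all 15 arrays, by group; points are arrays and lines are group means. Si1 and Si6 arrays lie close together for Hif1a and apart for the other genes, with Acta2, Plaur and Hsph1 high in Si1 alone and Tnc and Ednrb moved in opposite directions from the negative control.

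Across all genes, 6198 of 22180 were called between the siRNAs (27.9%), 3221 higher in Si1 (14.5%) and 2977 lower (13.4%). Differences were mostly small. The central range from the 5th to the 95th percentile ran from -0.42 to 0.44, with a median of 0.0025 and a median SE of 0.076. At least 2-fold apart were 189 genes higher in Si1 (0.852%) and 91 lower (0.41%). The RNA is from whole cultures, so fewer cells of a type and less RNA per cell cannot be told apart in any of these differences.

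The genes with the largest positive differences included several of contraction and of cell-surface proteolysis. Acta2, smooth muscle actin, read 11.41, 11.42 and 11.40 in Si1 against 8.02, 8.06 and 7.95 in Si6 and 8.01, 8.03 and 8.15 in the negative control. Si6 and the control overlapped and Si1 stood 3.40 ± 0.08 above Si6 (adjusted p = 6.2e-13). Actins are near-identical in sequence, so probes for one may read another. Plaur, the receptor for urokinase, read 10.20, 10.15 and 10.55 in Si1 and 7.22, 7.02 and 7.02 in Si6, a difference of 3.21 ± 0.11. Tnc, the matrix glycoprotein tenascin C, read 9.40, 9.32 and 9.51 in Si1 and 6.20, 6.40 and 6.57 in Si6, with the negative control between at 8.09, 8.15 and 7.96. Its difference was 3.02 ± 0.08, and against the same control arrays it was 1.35 in Si1 and -1.67 in Si6. Wincr1, a long noncoding RNA, had the same arrangement and the largest difference of all named genes, 3.46 ± 0.08.

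Other genes among the 20 with the largest positive differences were Serpinb2 (3.16), Tmem171 (2.79), the keratin Krt17 (2.78), the cornified envelope gene Lce1h (2.74), Actg2 (2.58), the chemokine Ccl9 (2.31), the collagenase Mmp1a (2.29), the actin crosslinker Flnc (2.27), Ptprn (2.18), the ERK phosphatase Dusp5 (2.17) and the glutamine transporter Slc38a3 (2.17). Cpa4, Astx5, the urokinase gene Plau, Lurap1l and Crispld2 differed by 2.02 to 2.16. Lce1h and Astx5 belong to families of near-identical genes, so their signal may be shared. Krt17 read 8.50 to 8.92 in Si1 and 5.70 to 6.18 in Si6, while none of 10 keratinocyte markers was called, the keratin gene Krt14 included at -0.03. Slc38a3, like Tnc, had its larger step from the negative control in Si6. It read 9.85, 10.01 and 10.03 in Si1, 7.79, 7.74 and 7.84 in Si6, and 9.23, 9.21 and 9.20 in the negative control, with -1.42 in Si6 and 0.75 in Si1 against the control.

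The genes lowest in Si1 relative to Si6 included a melanocyte receptor, an iron exporter and a nutrient sensor. Ednrb, the endothelin receptor required for melanocyte development, read 7.08, 6.83 and 7.32 in Si1 and 9.24, 9.34 and 9.25 in Si6, around 8.32, 8.27 and 8.20 in the negative control. The difference was -2.20 ± 0.10 (adjusted p = 6.5e-10), made of -1.19 in Si1 and 1.01 in Si6. Slc40a1, the cellular iron exporter ferroportin, read 5.79, 5.89 and 6.02 in Si1 against 7.98 to 8.18 in Si6 (difference -2.16 ± 0.08), and Si6 was nearer to the control. Ogn, a small leucine-rich proteoglycan, differed by -2.20 ± 0.07, and Dynlt3, a dynein light chain, by -1.95 ± 0.11, both also close to the control in Si6. Rragd, a GTPase that recruits mTORC1 to lysosomes, was the reverse case. It read 7.60, 7.61 and 7.71 in Si1, overlapping the control range of 7.60 to 7.93, and 8.89, 9.11 and 9.05 in Si6. Adh7 showed the same arrangement, with a difference of -1.48 between the siRNAs and of 1.59 between Si6 and the control. The remaining 14 of the 20 largest negative differences lay between -1.33 and -2.01 and included Sgk3, the gap junction gene Gjb2, the heme transporter Slc48a1, the amino acid transporter Slc7a8, the ATP-gated channel P2rx4 and the adhesion gene Igsf11.

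**Figure D2:**
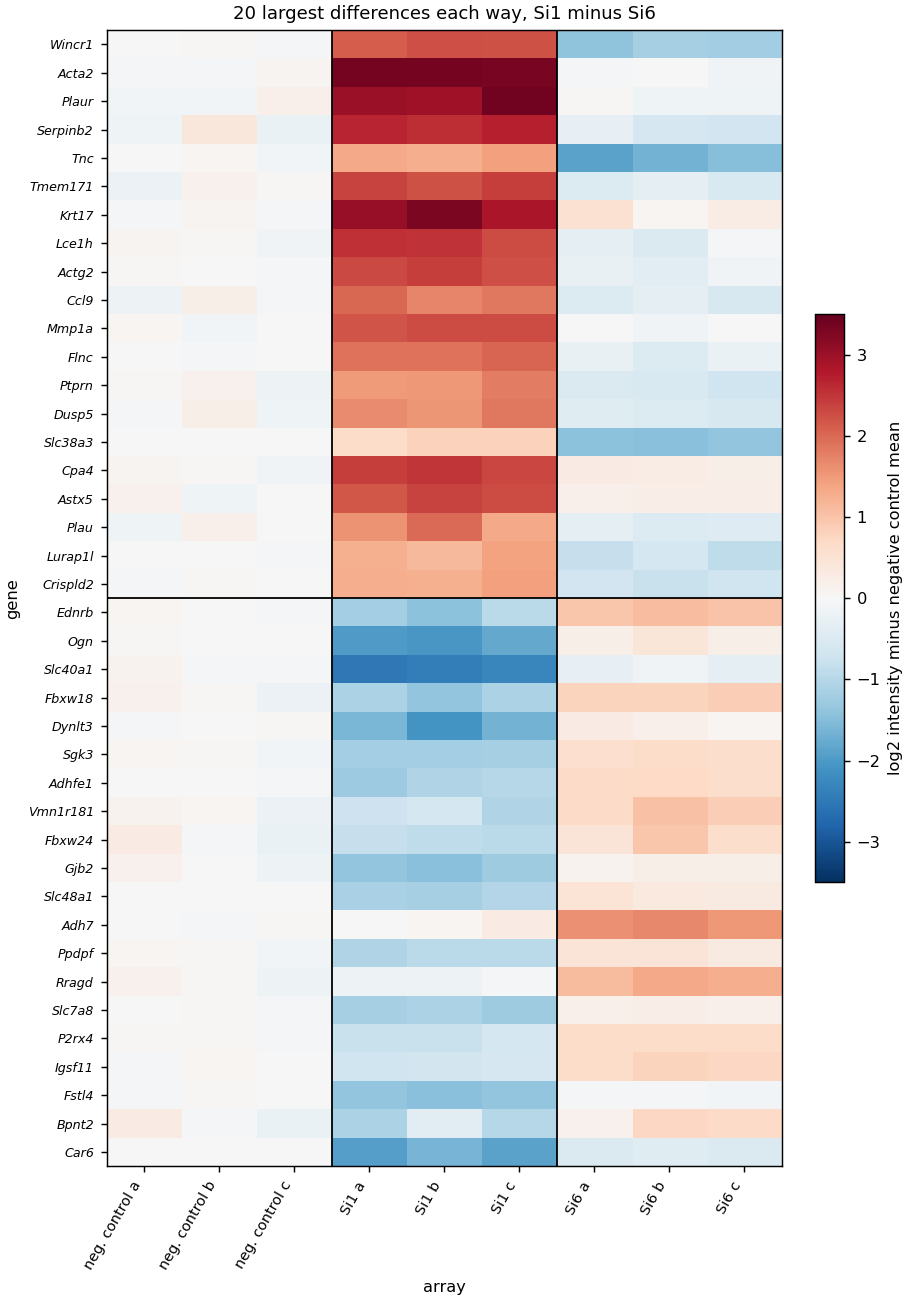
The 20 genes with the largest positive and the 20 with the largest negative Si1 minus Si6 difference (rows), as log2 intensity minus the negative control mean on the 9 negative control, Si1 and Si6 arrays (columns). All upper rows are red in Si1. Acta2, Plaur and Mmp1a are near white in Si6, many others are pale blue there (Lurap1l -0.77, Crispld2 -0.71, Dusp5 -0.49), and Tnc, Slc38a3 and Wincr1 are bluest (-1.67, -1.42 and -1.26). Adh7 and Rragd are coloured mainly in Si6.

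The negative control means are not part of the Si1 minus Si6 difference, although these arrays entered the shared estimate of spread, and they show where each siRNA lay relative to that control. Of the 189 genes at least 2-fold higher in Si1, the control mean lay between the siRNA means for 132 (69.8%), below both for 47 and above both for 10, and it was nearer to Si6 for 156 (82.5%). Of the 91 at least 2-fold lower in Si1, it lay between for 58 (63.7%) and was nearer to Si6 for 74 (81.3%). Over all 3221 genes called higher in Si1, it was nearer to Si6 for 71.4%, and over the 2977 called lower, for 57.8%. In most of the large differences Si1 was thus the group further from the control, and over all called genes the shares were smaller. The hypoxia control differed from the negative control for many genes, so a place relative to one need not hold for the other.

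Gene lists were read by their counts and medians, beside 14.5% higher, 13.4% lower and a median of 0.0025 over all genes. The lists were chosen with earlier results of these data known, so the counts below are descriptions and not independent tests of a program. The plot of list members shows the lists at both ends. For some of the lists, counts against the negative control are given too. In those contrasts 20.2% of all genes were higher and 14.8% lower in Si1, and 17.0% higher and 11.9% lower in Si6. Both of those contrasts use the same control arrays.

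**Figure D3:**
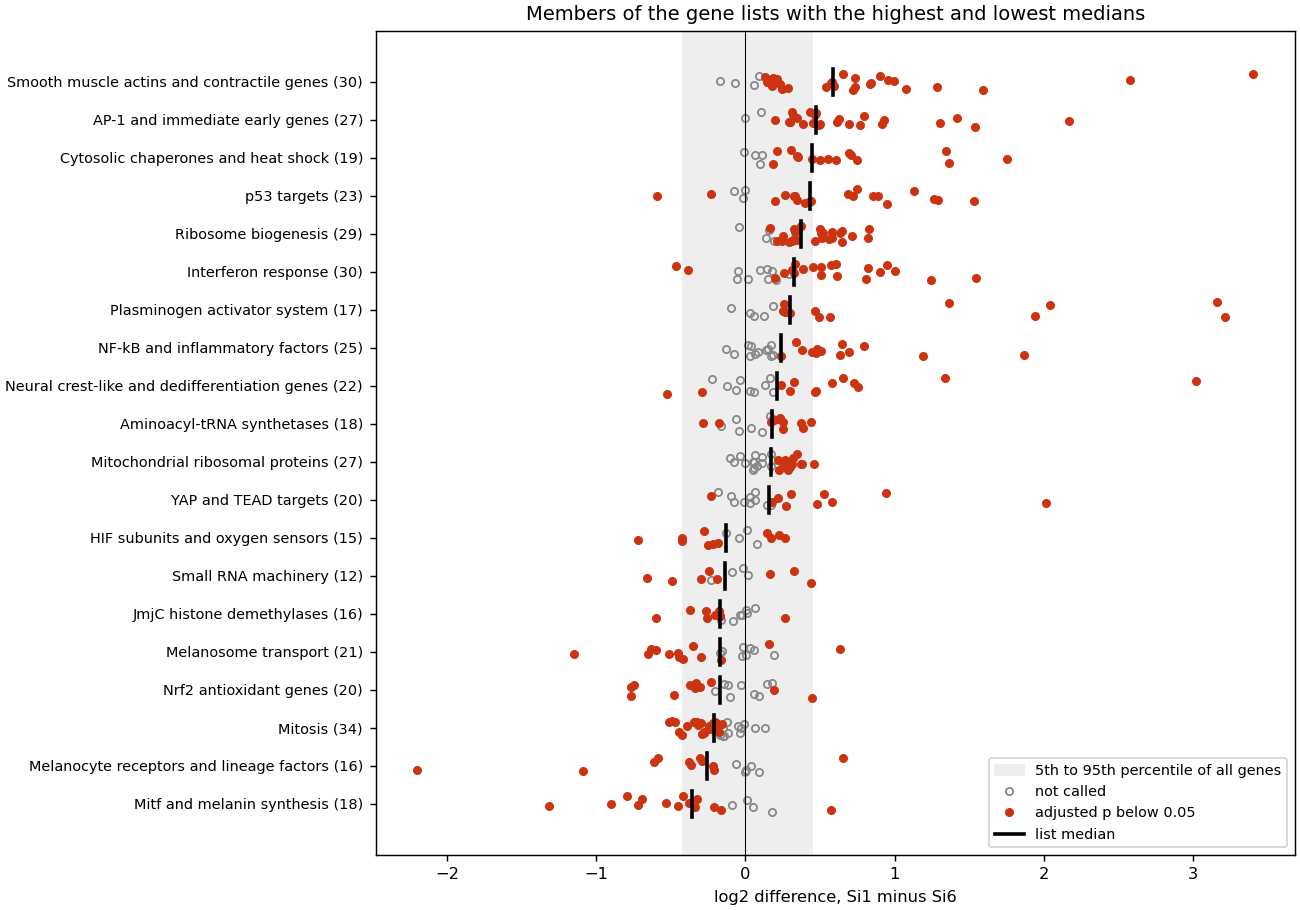
Si1 minus Si6 log2 difference of each member (points, filled where the limma adjusted p is below 0.05) of the 12 lists with the highest and the 8 with the lowest medians (bars), with measured members in brackets and the central range of all genes shaded. Contractile, immediate early and chaperone genes lie to the right, and pigment and mitosis genes to the left.

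Contractile genes had the highest median of any list. Of 30 smooth muscle actins and contractile genes, 26 were higher in Si1, 0 were lower, and the median was 0.59. Against the negative control, 21 were higher and 1 lower in Si1 (median 0.46), and 3 were higher and 11 lower in Si6 (median -0.070). That control was itself above the hypoxia control in 13 of the 30 and below it in 1 (median 0.19). Tagln, which encodes the actin-binding protein transgelin, read 7.37, 7.63 and 7.71 in Si1 and 6.01, 5.88 and 6.04 in Si6 (difference 1.59 ± 0.10). Cnn1, calponin, read 7.32, 7.23 and 7.32 against 6.09, 5.76 and 6.17 (1.29 ± 0.10). Neither gene's Si1 arrays overlapped the Si6 or control arrays. The transcriptional cofactor Fhl2 (1.08) and the actin nucleator Lmod1 (1.00) followed. Srf, the serum response factor that drives many contractile and immediate early genes, named after its values were seen, read 10.21, 10.22 and 10.36 in Si1 against 9.54, 9.36 and 9.38 in Si6 (0.84 ± 0.06).

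Immediate early genes, which respond to growth signals within minutes and include the AP-1 factors, were nearly all higher in Si1. The count was 25 of 27 higher and 0 lower, with a median of 0.47. Dusp5, which inactivates ERK, read 9.19, 9.09 and 9.40 in Si1 and 7.13, 7.06 and 6.98 in Si6 (2.17 ± 0.10). The transcription factors Egr1 and Egr3 differed by 1.54 and 1.42, the phosphatase Dusp1 by 1.30, Jun by 0.93 and Myc by 0.91. In this list the groups lay on both sides of the control, with 18 higher and 5 lower in Si1 (median 0.32) and 2 higher and 14 lower in Si6 (median -0.23). Myc shows it, at 0.31 in Si1 and -0.60 in Si6. Among YAP and TEAD targets, 9 of 20 were higher and 1 lower (median 0.16), led by the matricellular gene Ccn1 at 2.02. Its relative Ccn2 was higher by 0.52, but a second Ccn2 probe set gave 0.02. Against the control, 7 of these 20 targets were higher and 5 lower in Si1 (median 0.026). In Si6, 2 were higher and 11 lower (median -0.20).

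The plasminogen system, which activates proteolysis at the cell surface, was higher in Si1 at the level of receptor, protease and inhibitor alike. Of 17 measured genes 12 were higher and 0 lower, with a median of 0.30. The urokinase gene Plau read 8.70, 9.10 and 8.44 in Si1 and 6.80, 6.63 and 6.68 in Si6 (2.04 ± 0.14). Serpinb2, an inhibitor of urokinase, read 7.89, 7.80 and 7.94 against 4.93, 4.64 and 4.56 (3.16 ± 0.14). The metalloproteinase inhibitor Timp1 (1.94) and the metalloproteinases Mmp9 (1.37) and Mmp3 (0.56) were also higher. No member was called higher in Si6 than in the control, and 9 were called lower.

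Start-site sequence was examined for the genes at least 2-fold apart, in RefSeq windows (GRCm38.p6) of 300 bases, from 250 before to 50 after the start, on both strands. A window was found for 142 of the 189 genes higher in Si1, 69 of the 91 lower and 16990 of 22180 tested. The AP-1 word TGANTCA, which reads the same on both strands, was present in 13.4% of the windows higher in Si1 (19), 8.7% of those lower (6) and 7.39% of all. The serum response element was in 6.34% (9), 0% and 1.46%. The M-box TCATGTG, a site type of the melanocyte factor MITF, was in 2.82%, 7.25% (5) and 3.05%. The HIF core words ACGTG and GCGTG, which differ in their first letter, were in 30.3% and 41.5% of windows higher in Si1, 15.9% and 34.8% of those lower, and 21.3% and 39.0% of all. The TEAD word ACATTCC was in 5.63%, 4.35% and 3.41%, and the amino acid response word TGATGNAAT, which like TGANTCA begins with TGA, in 0%, 1.45% and 0.824%. These shares are descriptions of letters and were not tested.

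Stretches around the AP-1 match, in capitals, are shown for 4 carriers picked from the genes with the largest positive differences. Plaur also held 1 match, whereas the windows of Wincr1, Acta2, Tnc, Flnc and Dusp5 held 0. Adh7 and Me1, both lower in Si1, held 1 each. Serpinb2 is shown at chr1:107511284-107511380 (forward strand), Mmp1a at chr9:7464023-7464119 (forward strand), Ccl9 at chr11:83578638-83578734 (reverse strand) and Cpa4 at chr6:30568314-30568410 (forward strand). The matches begin at -94, -73, -53 and -10 from the annotated start, in that order.

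Serpinb2: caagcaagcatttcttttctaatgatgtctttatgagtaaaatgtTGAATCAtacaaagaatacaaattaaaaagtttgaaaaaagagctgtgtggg

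Mmp1a: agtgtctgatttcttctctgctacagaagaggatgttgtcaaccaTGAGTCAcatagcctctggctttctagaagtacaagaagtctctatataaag

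Ccl9: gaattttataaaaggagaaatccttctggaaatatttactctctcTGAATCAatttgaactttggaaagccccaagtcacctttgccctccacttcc

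Cpa4: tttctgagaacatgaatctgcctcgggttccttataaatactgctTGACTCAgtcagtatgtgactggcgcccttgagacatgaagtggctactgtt

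Mmp1a, whose stretch holds TGAGTCA, read 5.93, 6.02 and 6.01 in Si1 and 3.73, 3.60 and 3.75 in Si6, the latter within the control range of 3.65 to 3.79 but for array b (difference 2.29 ± 0.06). The serum response element, in capitals, is shown for Dusp5 at chr19:53529018-53529127 (forward strand), where 2 matches adjoin, for Lurap1l at chr4:80910463-80910562 (forward strand) and for Fhl2 at chr1:43196803-43196902 (reverse strand).

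Dusp5: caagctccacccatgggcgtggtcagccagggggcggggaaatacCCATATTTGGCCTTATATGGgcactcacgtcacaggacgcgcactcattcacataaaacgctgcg

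Lurap1l: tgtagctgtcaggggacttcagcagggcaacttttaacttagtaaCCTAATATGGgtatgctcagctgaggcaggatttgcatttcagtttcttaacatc

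Fhl2: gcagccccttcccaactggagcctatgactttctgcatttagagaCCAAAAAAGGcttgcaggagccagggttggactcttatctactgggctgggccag

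Lurap1l read 9.77, 9.67 and 9.93 in Si1 and 7.73, 7.91 and 7.63 in Si6 on either side of 8.50 to 8.54 in the negative control, a difference of 2.03 ± 0.12. The stretches shown were picked among carriers higher in Si1. The windows of Acta2, Cnn1, Flnc, Lmod1, Dusp1 and Jun held 0 matches to the serum response element. Gstp1, lower in Si1, and Herpud1, higher in Si1, held 1 each.

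Stress and growth programs were also higher in Si1. Of 19 cytosolic chaperones and heat shock genes, 15 were higher and 0 lower, with a median of 0.44. Hsph1, a nucleotide exchange factor for HSP70, read 9.81, 9.84 and 9.91 in Si1 against 8.02, 8.21 and 8.08 in Si6 (1.75 ± 0.09), and the Si6 arrays overlapped the control arrays at 8.04 to 8.28. The inducible HSP70 gene Hspa1b differed by 1.34 ± 0.07 and its near-identical copy Hspa1a by 0.70, and probes may not separate them. Hspb1 differed by 1.36 on one probe set and by 0.23 on another (adjusted p = 0.056). Against the control, 17 of the 19 were higher and 1 lower in Si1, and 5 higher and 4 lower in Si6.

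Targets of p53, the stress-activated tumour suppressor, numbered 23, of which 18 were higher in Si1 and 2 lower (median 0.43). Against the negative control, 17 were higher and 1 lower in Si1, and 6 higher and 5 lower in Si6. The negative control was itself above the hypoxia control in 14 of the 23 and below it in 1 (median 0.45). Btg2, an antiproliferative gene, differed by 1.26, Plk3 by 1.13 and the exonuclease gene Aen by 0.95. Each of these was above the control in both groups, by 1.67, 1.70 and 1.35 in Si1 and by 0.41, 0.57 and 0.41 in Si6. Plk2 differed by 1.54, and relative to the negative control its step was in Si6. It read 8.02, 8.21 and 8.41 in Si1, overlapping the negative control at 7.97 to 8.18, and 6.63, 6.76 and 6.64 in Si6. Its hypoxia control mean, given below, lay near the Si6 arrays and below the Si1 arrays. Cdkn1a, the cell cycle inhibitor p21, read 12.15, 12.20 and 12.12 against 11.67, 11.80 and 11.68 (0.44 ± 0.06).

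Ribosome biogenesis genes, which make and process ribosomal RNA, were higher in Si1 for 25 of 29, with 0 lower and a median of 0.37. Utp4 differed by 0.83, the pseudouridine synthase Dkc1 by 0.82, Rrp9 by 0.72 and the RNA polymerase I subunit Polr1b by 0.64. Both siRNAs stood above the control here, with 27 of 29 higher in Si1 (median 0.81) and 21 of 29 in Si6 (median 0.30). Nop56 differed by 0.64, and its other probe sets gave -0.07 and 0.50. Mitochondrial ribosomal proteins were higher in 12 of 27 and lower in 0 (median 0.17), and aminoacyl-tRNA synthetases higher in 9 of 18 and lower in 2 (median 0.18). Cytosolic ribosomal proteins, whose many copies make probes uncertain, were higher in 7 of 25, or 3 of 25 without Si1 array c.

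Interferon-response genes were mostly higher in Si1. Of 30, 19 were higher in Si1 and 2 lower (median 0.33). Against the control, 8 were higher and 4 lower in Si1 (median 0.074), whereas 1 was higher and 19 lower in Si6 (median -0.31). The negative control was itself above the hypoxia control in 15 of the 30 and below it in 1 (median 0.29), beside 7.8% and 7.51% of all genes. The array means of the list were 7.45 to 7.64 in Si1 and 7.50 to 7.54 in the negative control, and 7.11 to 7.20 in Si6, 7.09 to 7.11 in the hypoxia control and 7.04 to 7.10 in normoxia. Si1 thus lay with the negative control and Si6 nearer to the other groups. Usp18, which damps interferon signalling, differed by 1.55, with 1.11 in Si1 and -0.44 in Si6 relative to the control. Oasl2 (1.25), the chemokine Ccl5 (1.01) and the transcription factor Stat2 (0.82) followed. The DNA sensor family gene Ifi204 was below the negative control in both groups, by -1.76 in Si1 and -2.66 in Si6, and has close family copies. Its mean was 6.07 in the negative control, 3.90 in the hypoxia control, 4.31 in Si1 and 3.41 in Si6, so Si1 was above the hypoxia control and Si6 below it. NF-kB and inflammatory factors, in contrast, departed from the control in Si1. Of 25, 13 were higher in Si1 than in Si6 and 0 lower (median 0.24). The cytokine gene Il11 differed by 1.87 and Nfkb2, an NF-kB subunit, by 1.19, and in Si6 these stood at 0.00 and 0.03 against the control. Among 10 macrophage and leukocyte markers Cd68 (1.13) and Cd14 (0.51) were higher in Si1, whereas Ptprc (-0.04), Csf1r (0.05) and Adgre1 (0.01) were not called. The array mean of that list was 6.24 to 6.31 in Si1 and 6.09 to 6.15 in Si6, and its part in these results was not tested.

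Pigment cell genes were lower in Si1. All 10 melanocyte identity markers were lower in Si1 than in Si6, with a median of -0.71 and no overlap of arrays, in a contrast where 18.2% of all genes had every Si1 array below every Si6 array. Mitf, the master regulator of the lineage, read 10.19, 10.21 and 10.10 in Si1 and 11.04, 11.15 and 11.02 in Si6, the latter overlapping the control at 11.08 to 11.12 (difference -0.90 ± 0.05, adjusted p = 6.9e-09). Tyr, tyrosinase, the first enzyme of melanin synthesis, read 9.55, 9.25 and 9.34 against 10.17, 10.28 and 10.08 (-0.80 ± 0.07). Kit, the receptor for stem cell factor, read 7.53, 8.03 and 7.91 in Si1 against 8.94, 8.99 and 8.80 in Si6 (-1.09 ± 0.11). For Kit the Si1 arrays overlapped the negative control at 7.70 to 7.88, and the Si6 arrays lay above the hypoxia control at 8.67 to 8.72.

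The hypoxic controls differed in these markers too, with 9 of 10 lower in the negative control than in the hypoxia control and 0 higher (median -0.63). Relative to the negative control, the markers took different places. Mitf, Tyr and Sox10 were below the control in Si1 (-0.93, -0.91 and -0.39) and near it in Si6 (-0.03, -0.12 and -0.09). Mlana, Slc45a2, Pmel and Kit were near the control in Si1 (0.12, 0.07, 0.08 and 0.02) and above it in Si6 (0.83, 0.76, 0.42 and 1.11). Ednrb and Dct moved on both sides. Over the 10 markers, 6 were lower and 0 higher than the control in Si1, and 6 higher and 0 lower in Si6. Tyrp1, a further melanin enzyme gene, was the least different (-0.16, adjusted p = 0.020), and it lost its call under 4 alternatives, at -0.05 after renewed quantile normalization and at -0.14 and -0.13 without Si1 array c or Si6 array b.

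The wider pigment lists share members with the markers but took unlike places relative to the negative control. In Si6, 6 genes of Mitf and melanin synthesis were higher and 4 lower. For melanosome transport the Si6 counts were 9 and 1, and for receptors and lineage factors 3 and 7. In Si1 the counts were 3 and 9, 6 and 8, and 2 and 11, in that order. Directly compared between the siRNAs, each list had more members lower than higher in Si1. Of 18 genes of Mitf and melanin synthesis, 13 were lower in Si1 and 1 higher (median -0.36), with the melanosomal channel Oca2 at -1.32 and the copper transporter Atp7a the exception at 0.58. Of 21 melanosome transport genes, 11 were lower and 2 higher (median -0.17). Mlph, melanophilin, which links melanosomes to myosin, differed by -1.15, Hps5 by -0.65 and Rab38 by -0.63. Of 16 melanocyte receptors and lineage factors, 10 were lower and 1 higher (median -0.26), the exception being Sox9 at 0.65. Neural crest-like and dedifferentiation genes were higher in 11 of 22 and lower in 2 (median 0.21), led by Tnc, the receptor gene Gfra2 (0.75), Fn1, fibronectin (0.73), and the receptor tyrosine kinase Axl (0.58). Against the negative control, 5 of these 22 were higher and 4 lower in Si1 (median 0.011). In Si6, 1 was higher and 9 were lower (median -0.18). Of 9 Schwann and neural markers, S100b (-1.07), Mbp (-0.57) and Cnp (-0.29) were lower and Tubb3 (0.35) higher.

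The M-box, in capitals, is shown for the 3 melanin enzymes, which are known for it, with Tyr at chr7:87493483-87493579 (reverse strand), Dct at chr14:118052346-118052496 (reverse strand), with 1 match on each strand, and Tyrp1 at chr4:80834121-80834217 (forward strand). In spite of sharing the word, these genes differed by unlike amounts, -0.80, -0.42 and -0.16.

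Tyr: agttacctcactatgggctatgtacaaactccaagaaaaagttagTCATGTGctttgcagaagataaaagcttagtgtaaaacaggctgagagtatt

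Dct: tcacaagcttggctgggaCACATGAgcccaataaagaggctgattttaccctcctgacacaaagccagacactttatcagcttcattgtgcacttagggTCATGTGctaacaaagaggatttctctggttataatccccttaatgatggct

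Tyrp1: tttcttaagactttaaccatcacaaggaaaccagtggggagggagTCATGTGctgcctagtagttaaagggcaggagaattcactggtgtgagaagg

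Genes of mitosis and of DNA replication differed in opposite directions. Of 34 mitosis genes 22 were lower in Si1 and 0 higher (median -0.21), and 14 were lower without Si1 array b and 12 without Si6 array b. Against the negative control, 5 were higher and 10 lower in Si1 (median -0.0024), and 18 higher and 1 lower in Si6 (median 0.19). All 34 were higher in the negative control than in the hypoxia control (median 0.73). Nusap1, a spindle protein gene, differed by -0.51, Ccnb2, a mitotic cyclin, by -0.49 and Prc1, of the midzone, by -0.47. Mki67, the proliferation antigen Ki-67, read 11.41, 11.38 and 11.31 in Si1 and 11.81, 11.84 and 11.79 in Si6 (-0.45 ± 0.06), with the control between at 11.55 to 11.73. Of 39 DNA replication genes, 15 were higher in Si1 and 3 lower (median 0.13), with the licensing factor Cdt1 at 0.47 and Orc6 at 0.45. Both groups were far above the negative control in that list, with 37 of 39 higher in Si1 (median 0.70) and 38 of 39 in Si6 (median 0.63). That control was itself above the hypoxia control in 27 of the 39 and below it in 0 (median 0.42). Ccnd2 and Ccnd1, the cyclins of early G1, were higher in Si1 by 0.78 and 0.58.

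The classic HIF targets, by contrast, were lowered by both siRNAs and differed between them in both directions. Of 26 hypoxia adaptation genes, 24 were below the control in Si1 (median -1.59) and 24 in Si6 (median -1.71), with 0 above in either. Directly compared, 7 were higher in Si1 and 5 lower, with a median of 0.029. Pdk1, which closes the entry of pyruvate into mitochondria, read 7.08, 6.99 and 6.76 in Si1, 7.68, 7.73 and 7.71 in Si6, and 10.26 to 10.41 in the control. Its difference was -0.76 ± 0.09, though a dim second probe set gave -0.08. Bnip3, a mitophagy receptor named after its values were seen, read 7.63, 7.49 and 7.77 against 7.88, 8.05 and 7.91 (-0.32 ± 0.07), which is -3.92 and -3.61 from the control. Lower in Si1 were also Ndrg1 (-0.60) and the collagen hydroxylase P4ha1 (-0.45). Higher in Si1 were the mTORC1 inhibitor Ddit4 (0.61), Plekha2 (0.57, with -0.03 on a second probe set) and the lysyl hydroxylase Plod2 (0.49).

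Glycolysis was split in the same manner. Of 24 genes of glucose uptake and glycolysis, 11 were higher in Si1 and 5 lower (median 0.097). Pfkl, liver phosphofructokinase, read 9.33, 9.09 and 9.39 in Si1 and 10.20, 10.16 and 10.04 in Si6 (-0.86 ± 0.08), both far below 11.77 to 11.90 in the control. The aldolase gene Aldoc (-0.64) and the glycogen branching enzyme gene Gbe1 (-0.55) went the same way. Eno2, a neuronal enolase, read 9.67, 9.58 and 9.64 in Si1, against 8.81, 8.82 and 8.72 in Si6 and 8.80 to 8.86 in the control (0.85 ± 0.06). It was therefore raised in Si1 and at the control level in Si6. Pgam1 (0.59) and the glucose transporter gene Slc2a3 (0.48) were below the control in both groups and less so in Si1.

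**Figure D4:**
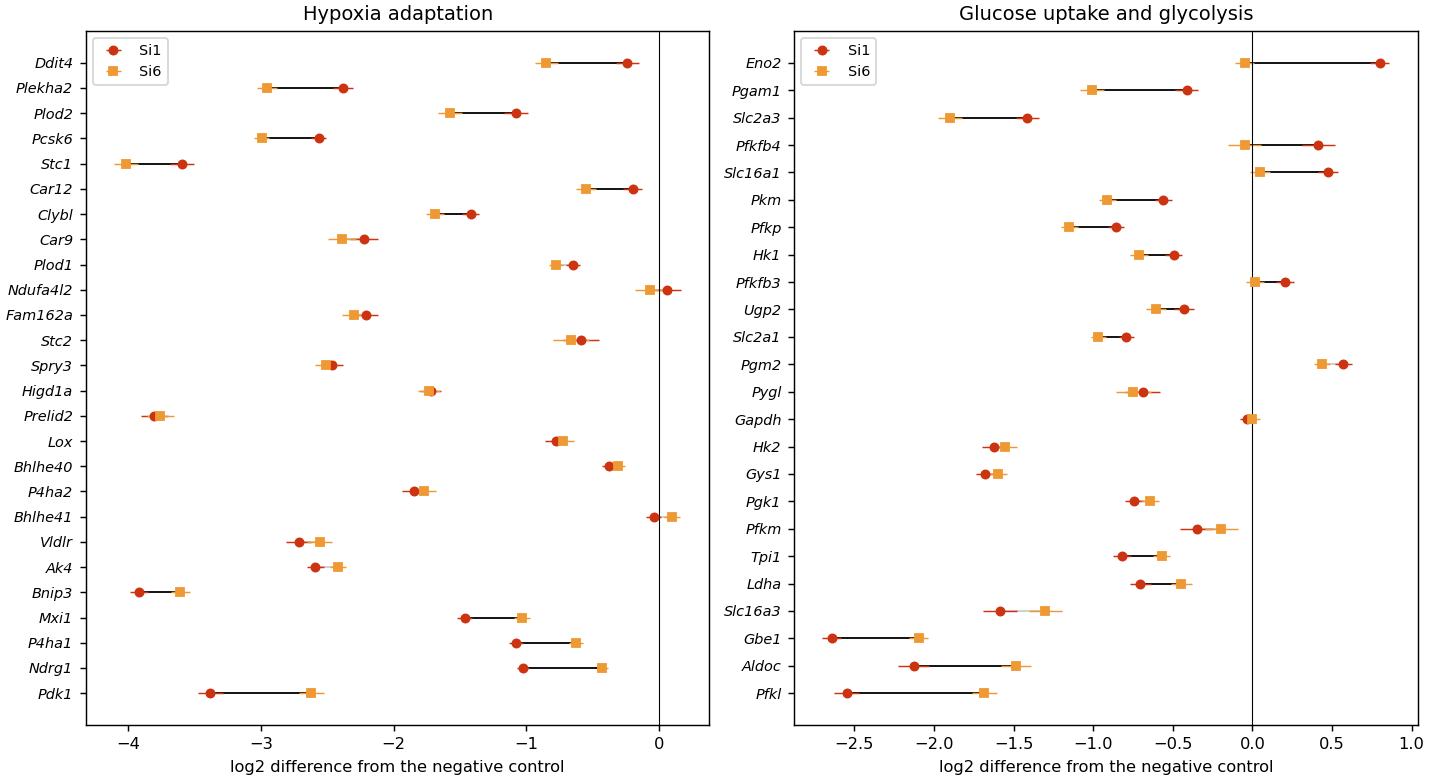
Log2 difference from the negative control (± SE) of hypoxia adaptation genes (left) and glucose uptake and glycolysis genes (right) in Si1 (circles) and Si6 (squares), joined in black where Si1 and Si6 differ at a limma adjusted p below 0.05. Both siRNAs share the control arrays. Pdk1, Pfkl, Gbe1 and Ndrg1 are further from 0 in Si1, and Ddit4, Plekha2, Plod2 and Slc2a3 are further from 0 in Si6.

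Among secreted angiogenic factors, the 4 largest differences went with low values in Si6. Of 20, 6 were higher in Si1 and 5 lower (median 0.034). Apln, the vessel-guiding peptide apelin, read 9.18, 9.06 and 9.23 in Si1 and 8.19, 7.83 and 7.79 in Si6, below the control at 9.92 to 10.06 in both (1.22 ± 0.10). Thbs1, the angiogenesis inhibitor thrombospondin 1, read 10.87, 10.82 and 10.91 against 9.57, 9.42 and 9.59 (1.34 ± 0.08). Pgf, placental growth factor, read 8.18, 7.87 and 8.28 against 6.92, 7.10 and 7.08 (1.08 ± 0.11). For Thbs1 and Pgf the Si1 arrays overlapped the control arrays and the Si6 arrays were lower. Pdgfb differed by 0.78, with 0.20 in Si1 and -0.58 in Si6 against the control. Vegfb (-0.56) and Sema3c (-0.47) were lower in Si1. Of 16 JmjC histone demethylases, several of them HIF targets that need oxygen to work, 8 were lower in Si1 and 1 higher (median -0.17), with Kdm3a at -0.60 and Kdm4b at -0.38. With only the Si1 and Si6 arrays in the fit, 5 were lower.

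Genes that answer to hypoxia in these cells were called in both directions. The contrast of hypoxia control with normoxia shares no array with the siRNA contrast. Both use the same estimate of spread from all 15 arrays, so their calls are not independent. Between Si1 and Si6, 14.5% of all genes were called higher in Si1 and 13.4% lower. Of 2190 genes raised by hypoxia (9.87% of all), 621 were higher in Si1 (28.4%) and 557 lower (25.4%). For the 128 raised at least 2-fold (0.577%), the counts were 38 and 37, with a median of -0.0058. Of 2474 lowered by hypoxia (11.2%), 609 were higher (24.6%) and 718 lower (29.0%). The 30 lowered at least 2-fold (0.135%) were less even, with 7 higher in Si1 (23.3%), 16 lower (53.3%) and a median of -0.22.

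The difference between the negative control and the hypoxia control, in the same gas, was also set beside the siRNA contrast. These contrasts share no array, but they too share the estimate of spread. Of 1730 genes higher in the negative control (7.8%), 698 were higher in Si1 than in Si6 (40.3%) and 353 lower (20.4%), beside 14.5% and 13.4% of all genes. Of 1666 lower in the negative control (7.51%), 225 were higher in Si1 (13.5%) and 726 lower (43.6%). For the 55 at least 2-fold higher in the negative control (0.248%) the counts were 36 and 9, with a median of 0.51, and for the 11 at least 2-fold lower (0.0496%) they were 1 and 10, with a median of -0.60. Tnc, Wincr1, Slc38a3, Plk2 and Thbs1 were called higher in the negative control than in the hypoxia control, and Ednrb and Kit lower. Their hypoxia control means of 7.66, 6.58, 7.89, 6.81, 9.74, 9.50 and 8.69 lay beside negative control means of 8.07, 7.54, 9.21, 8.08, 10.90, 8.26 and 7.80. What the negative control received is not stated, and its part in the siRNA difference was not tested.

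**Figure D5:**
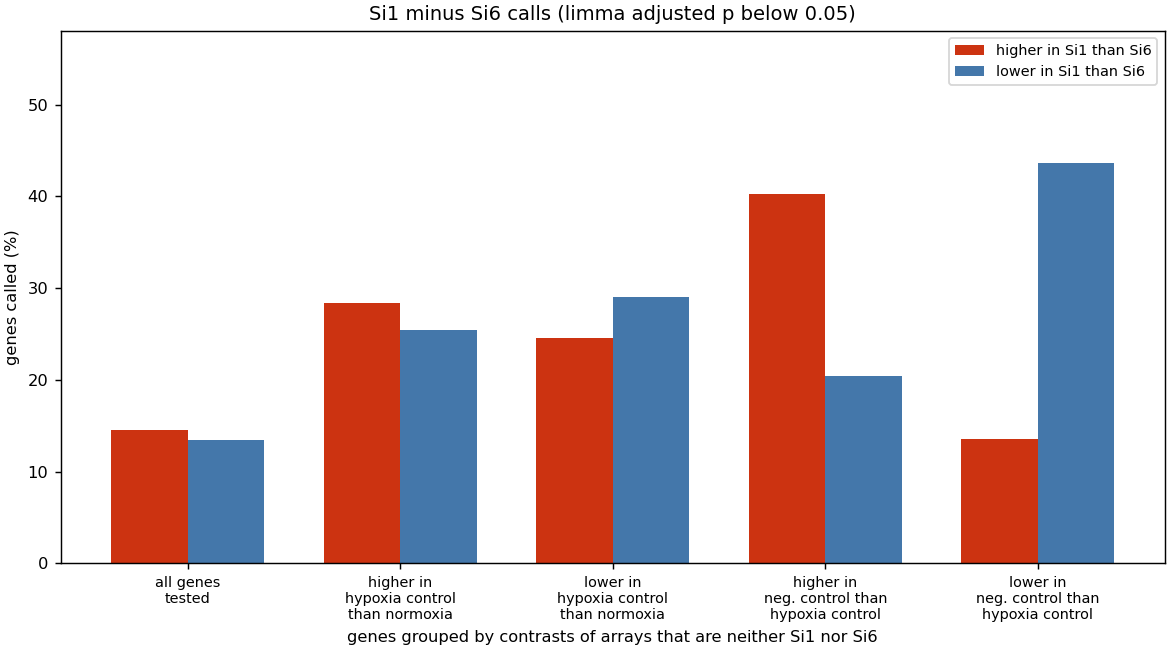
Share of genes called higher (red) or lower (blue) in Si1 than in Si6, in percent, for all genes and for genes grouped by contrasts of arrays that are neither Si1 nor Si6. Genes of any size of difference are counted. The shares are 14.5% and 13.4% in all genes, 28.4% and 25.4% in genes raised by hypoxia, and 24.6% and 29.0% in genes lowered by it. They are 40.3% and 20.4% in genes higher in the negative control than in the hypoxia control, and 13.5% and 43.6% in genes lower.

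The antioxidant program of the transcription factor Nrf2 was lower in Si1 in 9 of 20 genes and higher in 2 (median -0.17). Nfe2l2, which encodes Nrf2, differed by -0.75, the quinone reductase Nqo1 by -0.77 and malic enzyme Me1 by -0.77, whereas thioredoxin reductase Txnrd1 was higher by 0.44. Against the negative control, 7 of these 20 genes were higher and 7 lower in Si1 (median 0.0077). In Si6, 10 were higher and 3 lower (median 0.16). Autophagy genes were lower in 13 of 29 and higher in 3 (median -0.12), with the kinase gene Ulk2 at -0.98 and Atg10 at -0.86, and Atg9b higher by 1.22. Respiratory chain genes differed little between the siRNAs, with 7 of 32 higher and 1 lower (median 0.035), while 29 of 32 were above the control in each group. ATF4 response genes were higher in 10 of 28 and lower in 2 (median 0.10), and 21 and 20 of the 28 were above the control in Si1 and Si6.

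The machinery that carries siRNAs and microRNAs differed too. Of 12 genes, 3 were higher in Si1 and 5 lower. Ago2, the Argonaute that cuts its target, was higher by 0.44 (adjusted p = 4.4e-06), while Ago1 (-0.66) and Ago3 (-0.49) were lower, as were Drosha (-0.30), Prkra (-0.24) and Dicer1 (-0.19). Tnrc6a was higher by 0.32 and Mov10 by 0.17. The calls of Mov10 and Prkra were each lost without any one of several arrays. Ago4, Tnrc6c, Tarbp2 and Xpo5 were not called, at -0.23, -0.09, -0.02 and 0.01.

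Among 483 microRNA genes on the array, 19 were higher in Si1 (3.93%) and 24 lower (4.97%), beside 14.5% and 13.4% of all genes. Mir221 and its neighbour Mir222, on chromosome X, were named after their values were seen. Their mature forms share a seed, bases 2 to 8 in capitals, and are shown because a single primary transcript is known to carry both. The sequences are from RefSeq (GRCm38.p6), at chrX:19146307-19146329 and chrX:19146901-19146923 on the reverse strand.

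mmu-miR-221-3p: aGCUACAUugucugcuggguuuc

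mmu-miR-222-3p: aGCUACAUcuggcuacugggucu

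Mir221 read 6.86, 6.81 and 7.02 in Si1 and 5.25, 5.11 and 5.22 in Si6, with the control between at 5.55 to 6.17 (difference 1.71 ± 0.14, adjusted p = 1.4e-07). Mir222 read 6.10, 6.30 and 6.46 against 5.92, 5.59 and 6.01 (0.45 ± 0.14, adjusted p = 0.021), and its control arrays at 5.78 to 6.27 overlapped both groups. These probes read total RNA of the gene, so mature microRNA was not measured apart from its precursor. Kit, a known target of this microRNA pair, read lower in Si1 than in Si6 as given above. Relative to the negative control, Mir221 stood at 1.01 in Si1 and -0.70 in Si6. Kit was near that control in Si1 and above it in Si6. The part of the microRNAs in the Kit difference was not tested.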

How the data were processed

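Total RNA of 15 cultures was biotin-labelled and hybridised to one-colour Affymetrix arrays, per the labels' protocols. What the authors deposited is a single table of log2 values with 41345 probe sets. The submitters' processing notes name RMA and Partek. Settings, filters and any batch correction were not given in the sources used here. RMA brings arrays to one distribution, which would hide a shift common to every gene and compresses differences of dim genes. The number of arrays limits the precision.

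Groups came from the sample titles. Probe sets with exactly 1 symbol in the platform annotation were used (23521, against 1814 with several and 16010 with none), 23328 of them matched by Entrez identifier to RefSeq GRCm38.p6 with 0 symbols changed. The brightest probe set stood for each of the 1082 genes with more than 1, which left 22180 genes. A model of 5 group means over 15 arrays was fitted to the deposited log2 values with limma 3.58.1 and its eBayes (R 4.3.3), and contrasts were tested two-sided with Benjamini-Hochberg adjustment at 0.05. On simulated data for Si1 minus Si6, over 22180 genes, it recovered 74.6% of 67 genes changed by 0.5 on the log2 scale, 98.5% of 67 changed by 1 and 100% of 66 changed by 2, and it called 10 unchanged genes (0.0455%). Far fewer genes were changed in that simulation than were called in the data, so these shares need not carry over.

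The members and gene lists were chosen with earlier results of these data known. Named genes were the HIF list, the 20 largest differences each way among called genes with arrays that do not overlap, up to 6 called members of each list and every member of a list of up to 12. Srf, Bnip3, Mir221, Mir222 and the promoters shown were added after values were seen. Alternatives were other normalizations, probe rules, filters and variance settings, array weights, only the compared groups, the replicate letter as a block and leaving out each Si1 or Si6 array. Promoter windows were the first listed per gene in the RefSeq table. Scanner files were not used here.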

Additional observations from a re-analysis of the deposited data

How the results depend on the processing

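Under 16 alternatives, the number of genes called between Si1 and Si6 ranged from 5322 to 6530 (6198 in the reported fit), and the share higher in Si1 from 48.7% (without Si1 array c) to 55.7% (renewed quantile normalization). Leaving out 1 array at a time gave 5322 to 5571 calls. The median of all genes lay between -0.0077 and 0.016. Hif1a was -0.11 with the mean of its probe sets (adjusted p = 0.17) and -0.33 to -0.25 without 1 array. Genes lower in the negative control than in the hypoxia control and higher in Si1 numbered 352 with the dimmest 50% left out and 143 with only the compared groups in each fit, against 225. Of 319 named genes past the test, 298 kept call and direction under every alternative run, 21 lost the call in at least 1 and 0 reversed. Letters did not pair the arrays: deviations of same-letter Si1 and Si6 arrays correlated at -0.22 to -0.007 over 3 pairs, and with the letter as a replicate block 5979 genes were called. Dim genes have compressed differences on these arrays.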

Other observations

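Adhesion and guidance genes also differed between the siRNAs. Of 21 integrin subunits, 9 were higher in Si1 and 2 lower (median 0.13). The laminin receptor subunit Itga7 differed by 1.44 and Itga3 by 1.14, and relative to the negative control Itga7 stood at -0.80 in Si1 and at -2.24 in Si6, and Itga3 at 0.13 and -1.02. The negative control was above the hypoxia control for both genes, by 1.58 and 0.97. In contrast, the fibronectin receptor subunit Itga5 was higher by 0.87 and was above the same control by 1.42 in Si1 and 0.55 in Si6. Gja1, connexin 43, was higher in Si1 by 1.37 while Gjb2, connexin 26, was lower by -1.54. The receptor Epha2 was higher by 1.54 and the guidance gene Sema6a lower by -1.17.

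Several lists had called members in both directions. Of 32 genes of lipid storage and fatty acid metabolism, 8 were higher in Si1 and 11 lower (median 0.026), with Cpt1a, which admits fatty acids to mitochondria, at -0.60 and Acadl at -0.53. Of 16 circadian clock genes, 5 were higher and 3 lower (median 0.048), with Per3 at -0.66, Nr1d1 at 0.66 and Arntl at 0.64. Of 29 genes of TGF beta signalling, 7 were higher and 7 lower (median 0.039), with the receptor Bmpr2 at -0.81 and the inhibitor Smad6 at -0.75. Among 17 ion channels, 7 were higher and 3 lower (median 0.16), and the purinergic channels P2rx7 (0.98) and P2rx4 (-1.36) lay on opposite sides.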
